A study of Mus musculus with 5 samples.

Results

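The SLC25 family of mitochondrial carriers was examined in tibialis anterior (TA) muscle, a fast-twitch muscle of the mouse hindlimb. The members are all genes of the table whose name begins with Slc25a, which gave 44 of 17015 genes. RNA-seq values were available for 3 libraries labelled WT control and 2 labelled skmNrip1-/-, from male, sedentary mice at 8 weeks of age. The line comes from C57BL/6J mice with loxP sites around exon 4 of Nrip1, crossed to a Cre line on C57BL/6JN. In the skmNrip1-/- mice, Cre recombinase expressed from the myogenin promoter deletes that exon in skeletal muscle fibers, whereas the controls are littermates without Cre. Cells of the muscle other than its fibers are not targeted by this Cre. Values are FPKM, fragments per kilobase of transcript scaled for library size, which sets levels of different genes on 1 per-length scale. How libraries were scaled to each other is not stated, and a second scale is given where it matters.

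SLC25 carriers are small proteins of the inner mitochondrial membrane, with a few members in peroxisomes or the outer membrane. Each is built from repeats of a common fold and moves its substrate through a binding site that opens in turn to the cytosol and to the matrix. Most exchange one solute for another, and together they connect oxidative phosphorylation, fatty acid oxidation, the malate-aspartate shuttle, iron and heme synthesis and coenzyme supply in the matrix with the rest of the cell. Nrip1 encodes RIP140, a corepressor of nuclear receptors that control genes of oxidative metabolism.

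The targeted gene was checked against the labels first. The FPKM of Nrip1 was 4.64, 7.69 and 6.55 in the WT control libraries and 25.3 and 22.5 in the libraries labelled skmNrip1-/-. Both of the latter lay above every control, a log2 fold change of 1.94 (standard error, SE, 0.21, adjusted p = 0.0261), which runs against a knockout label. This call was lost with no intensity trend (adjusted p = 0.0769), with the replicate number as a block (adjusted p = 0.128) and without WT control replicate 3 (adjusted p = 0.114). It was also lost when either library labelled skmNrip1-/- was left out, which left 1 library in that group. The log2 fold change itself stayed between 1.64 and 2.09 in 13 alternative settings. The table has a single value per gene, so fragments of exon 4 cannot be told from the others, and every direction given here rests on the labels.

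Markers of skeletal muscle were abundant in all libraries. Their summed FPKM over 7 genes did not overlap, at 48728 to 62977 in WT control TA and 42709 to 44185 in the libraries labelled skmNrip1-/-. Of these, Actn3 of fast fibers was lower at an unadjusted p of 0.05 or less (log2 fold change -0.77), and none was called. For 6 slow muscle genes the sums were 104 to 307 and 113 to 115. Within that list Myl2 was higher (1.85 to 9.68 FPKM against 42.1 and 33.6) and Myl3 lower (89.6 to 285 against 54.1 and 71.3) at that unadjusted p, and neither was called. None of the markers of erythroid cells, adipocytes, Schwann cells, endothelium or macrophages was listed at 0 in any library, and none was called. The erythroid sums did not overlap, at 511 to 764 FPKM in WT control TA and 827 to 996 in the libraries labelled skmNrip1-/-. Sums for adipocytes (7.91 to 14.3 against 12.3 to 12.4), Schwann cells (17.5 to 26.5 against 14.6 to 22.7), endothelium (72.3 to 83.5 against 68.1 to 78.4) and macrophages (7.70 to 16.6 against 8.57 to 11.6) overlapped. Transcripts of mitochondrial DNA (mtDNA) made up 45.4% to 50.7% of all FPKM in WT control TA, and 58.6% and 60.9% in the libraries labelled skmNrip1-/-. Relative depth, read from the steps between low FPKM values and set to 1 for WT control replicate 1, ran from 0.818 in skmNrip1-/- replicate 1 to 1.09 in WT control replicate 2. The absolute depth is unknown.

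Carrier transcripts spanned a wide range of abundance in WT control TA. Slc25a4, the muscle isoform of the ADP/ATP carrier, was by far the highest at 2284 ± 124 FPKM (SD, n = 3). The phosphate carrier Slc25a3 followed at 721 ± 21.3, then the aspartate/glutamate carrier Slc25a12 at 262 ± 12.1 and the oxoglutarate/malate carrier Slc25a11 at 206 ± 1.38. In each library these 4 levels kept this order without overlap between neighbours. Slc25a4 alone held 56.9% to 60.5% of the summed carrier FPKM in WT control TA, and all carriers other than these 4 held 9.70% to 10.7%. Next in order were the carnitine/acylcarnitine carrier Slc25a20 at 55.1 ± 7.77 FPKM (SD, n = 3) and the second ADP/ATP carrier, Slc25a5, at 34.2 ± 1.36. From rank 7 on, neighbours in the order overlapped in places, as for the NAD carrier Slc25a51 (25.1 to 31.7) and the glutathione carrier Slc25a39 (26.9 to 30.3). Slc25a47, described mainly from liver, ranked 20 with 8.10 ± 0.969 FPKM. At the other end, Slc25a2, Slc25a43, Slc25a48, Slc25a21 and Slc25a18 had WT control means of 0.206, 0.138, 0.0548, 0.0503 and 0.0415 FPKM. None of the 44 carriers was listed at 0 in any library.

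**Figure D1:**
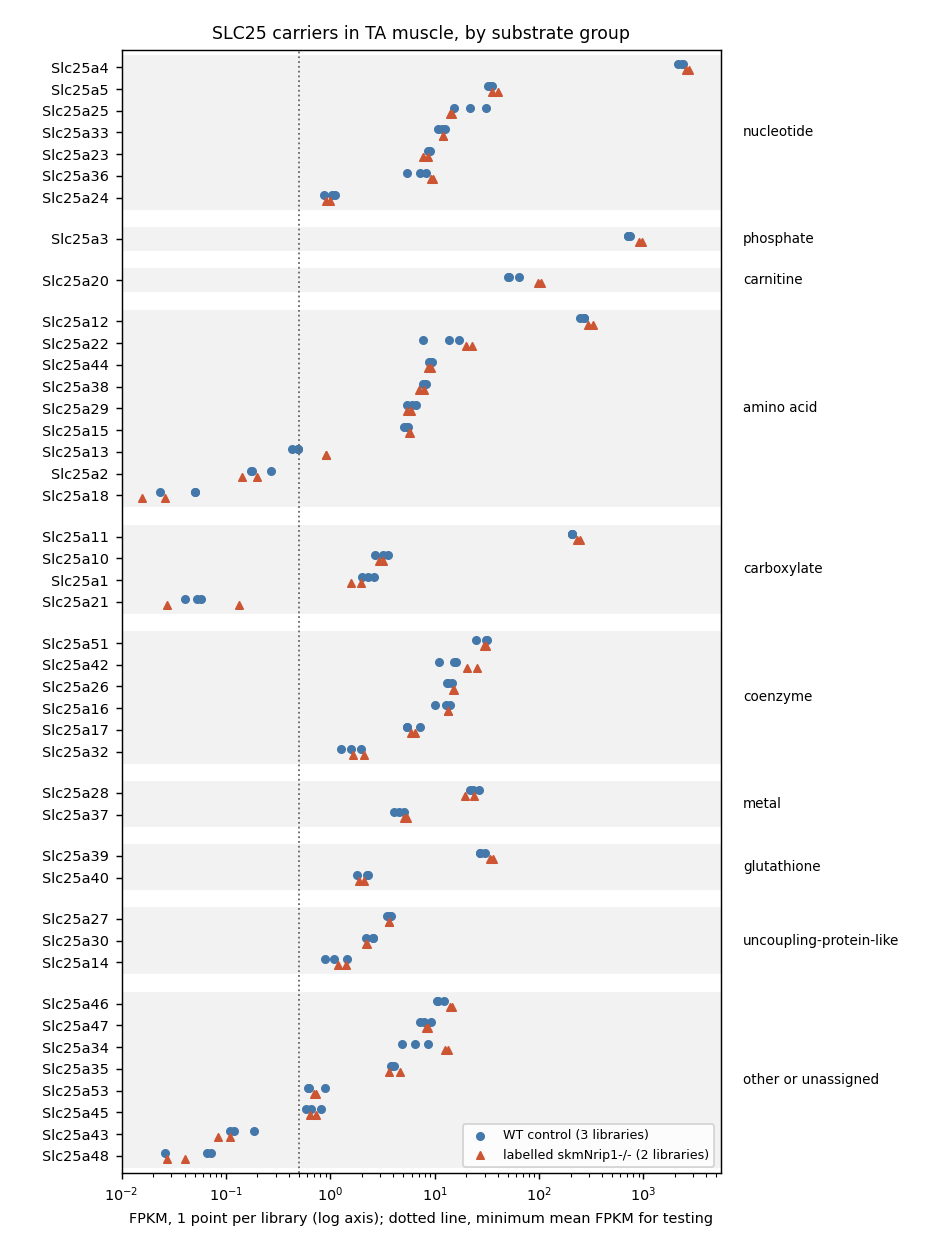
FPKM of 43 SLC25 carriers in each of the 5 libraries on a log axis, grouped by substrate and ordered by level within a group; circles are WT control, triangles are libraries labelled skmNrip1-/-, and the dotted line is the minimum mean of 0.5 FPKM for testing. Slc25a4 lies between 2141 and 2757 FPKM, while 5 carriers lie below the line.

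The summed FPKM of the 44 carriers came to 3861 ± 85.6 in the 3 WT control libraries and to 4614 ± 217 in the 2 libraries labelled skmNrip1-/- (mean ± SD). As a share of the FPKM of nuclear-encoded genes, the carriers took 0.648% to 0.740% in WT control TA and 0.894% and 0.887% in the libraries labelled skmNrip1-/-. As a share of all FPKM, mitochondrial transcripts included, the groups overlapped (0.342% to 0.403% against 0.370% and 0.347%). The division of the sum among carriers was close in both groups, with Slc25a4 at 57.8% and 57.4% in the libraries labelled skmNrip1-/-. The share of Slc25a3 was 18.1% to 19.8% in WT control TA and 20.4% and 20.5% in the libraries labelled skmNrip1-/-.

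Differences were tested with limma on log2(FPKM + 0.1) over the 12148 genes whose mean FPKM reached 0.5, which included 39 carriers. Calls required an adjusted p of at most 0.05 together with a change of 1.2-fold or more. No carrier was called in either direction. Among all genes tested, 45 were called higher (0.37%) and 10 lower (0.0823%). Before adjustment, 9 carriers were higher and 1 was lower at a p of 0.05 or less (23.1% and 2.56% of the 39), against 6.57% and 5.33% of all genes tested. In 16 carriers both libraries labelled skmNrip1-/- lay above every WT control library, and in 4 both lay below (41% and 10.3%). The same shares over all genes were 15.8% and 14.4%. Slc25a13 is among both the 9 and the 16 higher carriers, and it passed the minimum only through its level in the libraries labelled skmNrip1-/-.

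Over the 39 carriers the log2 fold change had a median of 0.08, with 26 above 0 and 13 below. The median of all genes was -0.00, and 49.9% of them were above 0. On a scale that sets each library to the same total (TPM), the carrier median was -0.21 and that of all genes -0.29, so the sign flipped while the carriers stayed 0.08 above all genes. On that scale 2 carriers were higher and 8 lower at an unadjusted p of 0.05 or less, against 1.3% and 29.5% of all genes, and none was called. The mtDNA share given above enters that total. The count of 9 higher carriers was 5 without WT control replicate 3, where 4.78% of all genes were higher at an unadjusted p of 0.05 or less. It also fell when either library labelled skmNrip1-/- was left out, as did the share of all genes, with 1 library then left in that group. The carrier median was 0.04 without WT control replicate 1, 0.09 without skmNrip1-/- replicate 1 and 0.08 without skmNrip1-/- replicate 2. In whole-muscle RNA, a change in the number of cells of a type and a change in RNA per cell cannot be told apart.

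**Figure D2:**
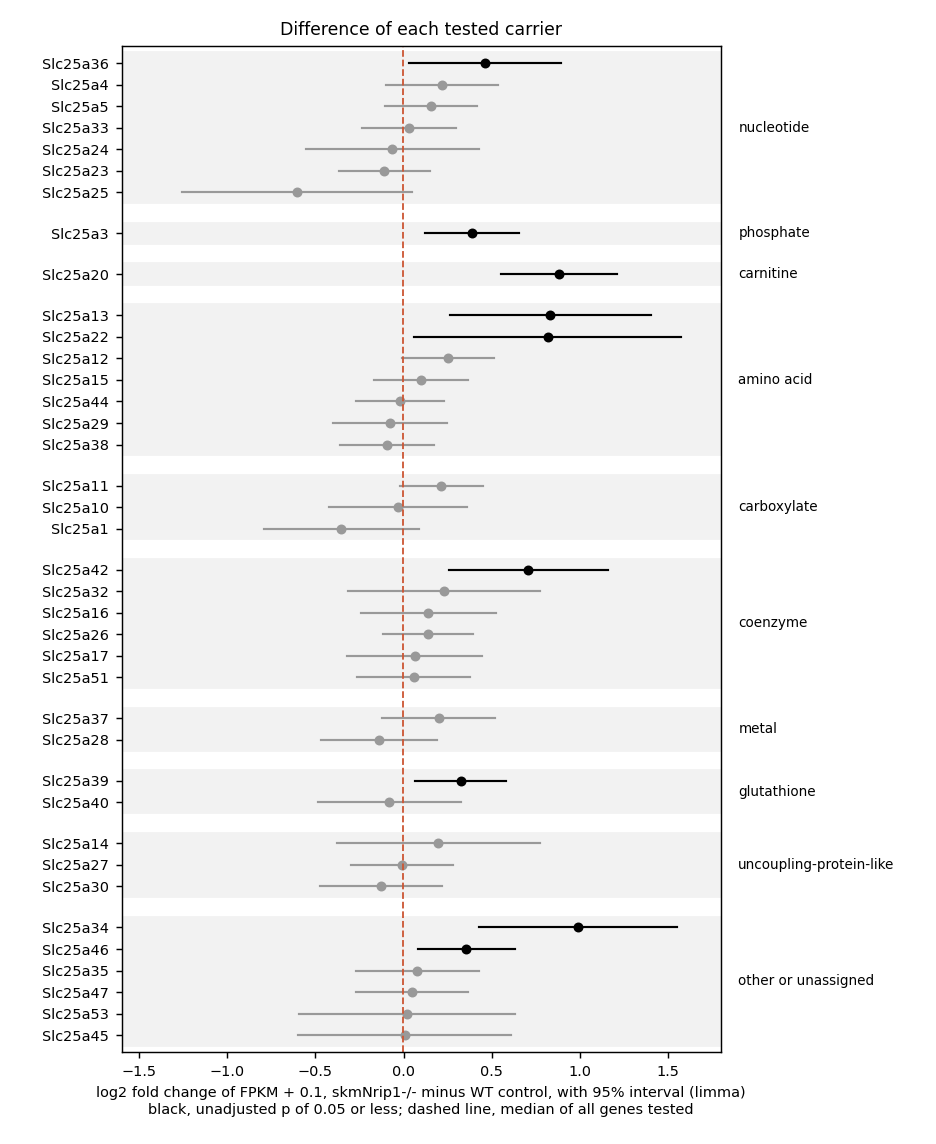
Log2 fold change of FPKM + 0.1, skmNrip1-/- minus WT control, for 38 tested carriers with the 95% interval from limma, grouped by substrate; black marks an unadjusted p of 0.05 or less, and the dashed line is the median of all genes tested. Values run from -0.60 for Slc25a25 to 0.99 for Slc25a34, and on the TPM scale every value moves down together, with the median of all genes at -0.29.

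The promoter sequences of Slc25a20, Slc25a3 and Slc25a34 are shown because the first had the smallest p-value of the family, the second was the most abundant carrier with an unadjusted p of 0.05 or less and the third had the largest difference. They are the bases of the 250 before the RefSeq start that lie outside the annotated gene (GRCm38.p6), read 5′ to 3′ on the gene's strand. Capitals mark matches to AAGGTCA, the half-site of the estrogen-related receptors, or GCGCANGCG, the core of nuclear respiratory factor 1, searched on both strands.
Slc25a20, chr9:108661886-108662087, plus strand: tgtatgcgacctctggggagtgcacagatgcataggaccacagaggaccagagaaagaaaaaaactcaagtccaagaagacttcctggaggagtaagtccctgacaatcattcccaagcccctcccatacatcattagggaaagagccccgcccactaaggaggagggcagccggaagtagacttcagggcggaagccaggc
Slc25a34, chr4:141623835-141624084, minus strand: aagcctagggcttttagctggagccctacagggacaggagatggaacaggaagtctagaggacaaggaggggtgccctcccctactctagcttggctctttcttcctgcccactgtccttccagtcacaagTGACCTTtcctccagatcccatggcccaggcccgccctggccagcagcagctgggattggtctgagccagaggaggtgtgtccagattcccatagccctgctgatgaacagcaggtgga
Slc25a3, chr10:91124060-91124217, minus strand: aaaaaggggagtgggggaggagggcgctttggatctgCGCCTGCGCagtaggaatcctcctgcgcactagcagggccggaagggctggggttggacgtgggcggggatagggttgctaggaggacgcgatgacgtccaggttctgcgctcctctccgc
The match in Slc25a34 is to AAGGTCA on the opposite strand and begins 119 bases before the start. The match in Slc25a3 is to GCGCANGCG on the opposite strand, 213 bases before the start. Among 44 promoters of the 34 carrier genes with a RefSeq entry, each motif was found in only 1 of the full 250-base windows. Of all 32851 promoters, 4.08% held AAGGTCA and 5.16% held GCGCANGCG.

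The carnitine group has a single member. Slc25a20 (ENSMUSG00000032602, chromosome 9, 108662088 to 108684641, plus strand on GRCm38) encodes the carrier that brings acylcarnitines into the matrix for β-oxidation in exchange for carnitine. Its FPKM was 50.2, 64.0 and 50.9 in WT control TA and 104.6 and 97.2 in the libraries labelled skmNrip1-/-. Both values of the second group lay well above all controls, a ratio of the means of 1.83. The log2 fold change was 0.88 (SE 0.14, 95% interval 0.55 to 1.21), with an unadjusted p of 4.57e-04 and an adjusted p of 0.0793 from limma, so it was not called. On the TPM scale the difference was 0.58 (adjusted p = 0.0867), where all genes had a median of -0.29. The adjusted p ranged from 0.0354 to 0.423 over 13 alternative settings, and Slc25a20 was called in only one of them, without WT control replicate 2 (log2 fold change 0.99, adjusted p = 0.0354).

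The phosphate group also has a single member. Slc25a3 (ENSMUSG00000061904, chromosome 10, 91116574 to 91124059, minus strand) encodes the carrier that supplies the matrix with inorganic phosphate for ATP synthesis, and with copper. Its FPKM was 711, 746 and 707 in WT control TA and 971 and 915 in the libraries labelled skmNrip1-/-. The groups did not overlap, and the spread within each was small beside the gap. Its log2 fold change was 0.39 (SE 0.11, adjusted p = 0.267), and it was 0.09 on the TPM scale, where all genes had a median of -0.29.

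The nucleotide carriers were led by the ADP/ATP carriers, which export newly made ATP and return ADP. Slc25a4 (ENSMUSG00000031633, chromosome 8, 46206797 to 46211284, minus strand) had 2368, 2141 and 2342 FPKM in WT control TA and 2757 and 2558 in the libraries labelled skmNrip1-/-. The latter were higher without overlap, but the difference was modest at a log2 fold change of 0.22 (SE 0.13, adjusted p = 0.594), and -0.08 on the TPM scale. Slc25a5, the widely expressed isoform, had 35.1, 34.8 and 32.6 FPKM against 40.8 and 35.5. Its log2 fold change was 0.16 (adjusted p = 0.649), -0.14 on the TPM scale and 0.06 without skmNrip1-/- replicate 1. Slc25a4 and Slc25a5 are close in sequence, and how fragments that fit both were divided is not known.

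The pyrimidine nucleotide carriers serve the synthesis of mitochondrial DNA and RNA. Slc25a36 had 7.18, 8.18 and 5.45 FPKM in WT control TA and 9.23 and 9.68 in the libraries labelled skmNrip1-/-. The groups did not overlap, with a log2 fold change of 0.46 (SE 0.18, adjusted p = 0.390), which was 0.30 without WT control replicate 3 and 0.16 on the TPM scale. Its partner Slc25a33 lay at 10.7 to 12.4 FPKM in WT control TA and at 11.9 in both libraries labelled skmNrip1-/-, a log2 fold change of 0.03 (-0.27 on the TPM scale).

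The calcium-regulated ATP-Mg/phosphate carriers, which adjust the adenine nucleotide pool of the matrix, all had log2 fold changes below 0. Slc25a25 (ENSMUSG00000026819, chromosome 2, 32414487 to 32451445, minus strand) had the lowest one of the family. Its FPKM was 30.8, 15.2 and 21.9 in WT control TA and 14.6 and 13.9 in the libraries labelled skmNrip1-/-. The second group lay below every control, but WT control replicate 2 was close to it. On the log2 scale the difference was -0.60 (SE 0.27, adjusted p = 0.461), and -0.35 without WT control replicate 1. It was -0.90 on the TPM scale, where all genes had a median of -0.29. Slc25a25 shares 379 exonic bases with Naif1 on the opposite strand, and where counting ignores strand the fragments of such partners cannot be told apart. Slc25a23 (8.64 to 8.98 FPKM against 7.76 and 8.57) had a log2 fold change of -0.11 and Slc25a24 (0.878 to 1.104 against 0.915 and 0.994) one of -0.06. On the TPM scale Slc25a23 was at -0.40 and Slc25a24 at -0.33. With libraries scaled to the sum of nuclear-encoded genes, Slc25a24 was at 0.00. Of the 7 nucleotide carriers, 4 were above 0 and 3 below, with a median of 0.03, and 1 was higher at an unadjusted p of 0.05 or less. Of all genes tested, 49.9% were above 0 and 6.57% were higher at that p.

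**Figure D3:**
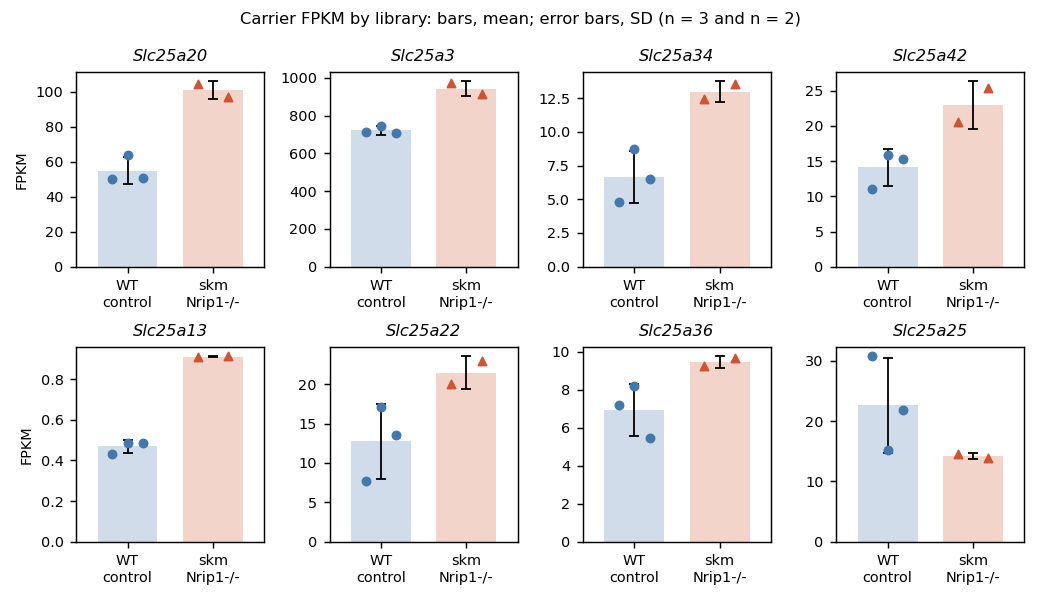
FPKM of 8 carriers by library on linear axes from 0, with bars for the group means, error bars for the SD (n = 3 WT control, n = 2 labelled skmNrip1-/-) and points for single libraries. Slc25a20, Slc25a3, Slc25a34, Slc25a42, Slc25a13, Slc25a22 and Slc25a36 are higher and Slc25a25 lower without overlap of the groups, and none was called.

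The amino acid carriers numbered 9, of which 7 passed the minimum. Slc25a12 and Slc25a13 encode the aspartate/glutamate carriers aralar and citrin, which drive the malate-aspartate shuttle. Slc25a12, the dominant one in muscle, had 248, 267 and 271 FPKM in WT control TA and 328 and 296 in the libraries labelled skmNrip1-/-. These did not overlap, with a log2 fold change of 0.25 (SE 0.11, adjusted p = 0.442), and of -0.05 on the TPM scale. Slc25a13 (ENSMUSG00000015112, chromosome 6, 6041218 to 6217173, minus strand), known chiefly from liver, was rare here, at 0.433, 0.487 and 0.486 FPKM against 0.910 and 0.913. The libraries agreed closely within each group, at a ratio of the means of 1.94. The log2 fold change was 0.83 (SE 0.24, adjusted p = 0.264), and 0.56 on the TPM scale, but the WT control mean of 0.469 is under the minimum. Slc25a13, which is among the 9 and the 16 carriers counted above, was thus tested only because it was higher in the other group.

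Slc25a22 (ENSMUSG00000019082, chromosome 7, 141429744 to 141437892, minus strand) encodes a glutamate carrier. Its FPKM was 7.65, 17.1 and 13.6 in WT control TA and 19.98 and 22.96 in the libraries labelled skmNrip1-/-. The groups did not overlap, but the controls differed widely among themselves. The log2 fold change was 0.82 (SE 0.32, adjusted p = 0.385), 0.52 on the TPM scale and 0.49 without WT control replicate 1, the lowest library. The second glutamate carrier, Slc25a18, was under the minimum, at 0.0231 to 0.0507 FPKM in WT control TA and 0.0156 and 0.0262 in the libraries labelled skmNrip1-/-.

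The other amino acid carriers stayed within 0.10 of 0 on the log2 scale. The ornithine/citrulline carrier Slc25a15 had a log2 fold change of 0.10, the branched-chain amino acid carrier Slc25a44 one of -0.02 and the basic amino acid carrier Slc25a29 one of -0.08. Slc25a38, which brings in glycine for heme synthesis, had 7.73 to 8.24 FPKM in WT control TA and 7.03 and 7.86 in the libraries labelled skmNrip1-/-, a log2 fold change of -0.09 (95% interval -0.36 to 0.17). Slc25a2, an ornithine carrier, lay at 0.174 to 0.269 FPKM against 0.142 and 0.199, under the minimum. The median of the 7 tested amino acid carriers was 0.10, with 2 higher at an unadjusted p of 0.05 or less (6.57% of all genes), Slc25a22 and Slc25a13, the latter tested only through its level in the libraries labelled skmNrip1-/-.

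The metal group holds the mitoferrins, which carry iron into the matrix for heme and iron-sulfur cluster synthesis. Slc25a37, mitoferrin-1, which is needed in developing red cells, had 5.03, 4.10 and 4.59 FPKM in WT control TA and 5.06 and 5.44 in the libraries labelled skmNrip1-/-. The lowest value of the second group was only just above the highest control, and the log2 fold change was 0.20 (SE 0.13, adjusted p = 0.636), 0.12 without WT control replicate 2 and -0.09 on the TPM scale. On the FPKM scale the erythroid markers moved the same way, and they were not read on the TPM scale. Of 5, all were above 0, 4 were higher without overlap and 3 were higher at an unadjusted p of 0.05 or less. These shares over all genes were 49.9%, 15.8% and 6.57%. Hba-a2 had 208 to 301 FPKM against 394 and 330. The part of the erythroid markers in the Slc25a37 value was not tested. Slc25a37 shares 381 exonic bases with Gm31748 on the opposite strand. Slc25a28, mitoferrin-2, the form found in most tissues, had 26.4, 21.5 and 23.0 FPKM against 23.6 and 19.4, overlapping groups with a log2 fold change of -0.14 (SE 0.14, adjusted p = 0.769). It was -0.28 without skmNrip1-/- replicate 1 and -0.00 without skmNrip1-/- replicate 2. On the TPM scale it was -0.44, where all genes had a median of -0.29.

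Coenzyme carriers supply the enzymes of the matrix with their cofactors. Slc25a42 (ENSMUSG00000002346, chromosome 8, 70184340 to 70212305, minus strand) encodes a carrier that imports coenzyme A and had the largest difference of this group. Its FPKM was 11.1, 15.9 and 15.3 in WT control TA and 20.5 and 25.3 in the libraries labelled skmNrip1-/-. The groups did not overlap, and the log2 fold change was 0.71 (SE 0.19, 95% interval 0.26 to 1.16, adjusted p = 0.241). It was 0.41 on the TPM scale and 0.54 without WT control replicate 1, the lowest library. Slc25a16, a protein linked to coenzyme A, had overlapping groups (10.05 to 14.1 FPKM against 13.5 in both) and a log2 fold change of 0.14.

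The other coenzyme carriers described here differed less. Slc25a32, for folate and FAD, had a log2 fold change of 0.23, Slc25a26, for S-adenosylmethionine, 0.14, the peroxisomal Slc25a17 0.06 and the NAD carrier Slc25a51 0.06. Slc25a51 was at -0.24 on the TPM scale, where all genes had a median of -0.29, and at -0.05 without WT control replicate 1. Values of Slc25a32, Slc25a26 and Slc25a17 on the TPM scale are not given, and their signs may not hold there.

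The carboxylate carriers connect the TCA cycle with the cytosol. Slc25a11, the oxoglutarate/malate carrier of the malate-aspartate shuttle, had 207, 207 and 205 FPKM in WT control TA and 246 and 233 in the libraries labelled skmNrip1-/-. The controls were tight and the groups did not overlap, with a log2 fold change of 0.21 (SE 0.10, adjusted p = 0.463), or -0.09 on the TPM scale. Slc25a11 shares 189 exonic bases with Rnf167 on the opposite strand. Slc25a1, the citrate carrier that exports citrate for lipid synthesis, went the other way, with 1.99, 2.61 and 2.29 FPKM against 1.58 and 1.97. Its highest value in the second group was only just below the lowest control. The log2 fold change was -0.35 (SE 0.18, adjusted p = 0.521), -0.64 on the TPM scale and -0.21 without skmNrip1-/- replicate 1. The dicarboxylate carrier Slc25a10 had a log2 fold change of -0.03. Slc25a21, for oxodicarboxylates, was under the minimum, at 0.0401 to 0.0578 FPKM against 0.132 and 0.0272.

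The glutathione carriers Slc25a39 and Slc25a40 supply the matrix with its main thiol antioxidant. Slc25a39 had 30.3, 26.9 and 26.9 FPKM in WT control TA and 36.4 and 33.9 in the libraries labelled skmNrip1-/-, without overlap. The difference was 0.33 on the log2 scale (SE 0.11, adjusted p = 0.318), and 0.03 on the TPM scale. The rarer Slc25a40, at 1.81 to 2.27 FPKM against 1.88 and 2.09, had a log2 fold change of -0.08.

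Among the uncoupling-protein-like carriers, Slc25a14 (UCP5) had a log2 fold change of 0.20 (95% interval -0.38 to 0.77, and -0.08 on the TPM scale), Slc25a27 (UCP4) one of -0.01 and Slc25a30 one of -0.13. In each of these 3 the groups overlapped. Slc25a27 was at 0.06 with libraries scaled to the nuclear-encoded sum.

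The 8 carriers not assigned to a substrate here held the largest difference of the family. Slc25a34 (ENSMUSG00000040740, chromosome 4, 141618824 to 141623821, minus strand) had 4.83, 8.69 and 6.49 FPKM in WT control TA and 12.4 and 13.5 in the libraries labelled skmNrip1-/-. Both lay above every control, at a ratio of the means of 1.94. The log2 fold change was 0.99 (SE 0.23, 95% interval 0.43 to 1.55), with an adjusted p of 0.196 from limma. It was 0.69 on the TPM scale. Without WT control replicate 1, the lowest library, it was 0.78, below Slc25a20 at 0.82 and Slc25a13 at 0.79. Slc25a46, an outer-membrane protein that takes part in mitochondrial fission and lipid transfer, had 10.8, 12.1 and 10.4 FPKM against 14.7 and 13.8. The groups did not overlap, and the log2 fold change was 0.36 (SE 0.11, adjusted p = 0.302), or 0.06 on the TPM scale. Slc25a46 shares 383 exonic bases with B930094E09Rik on the opposite strand. Slc25a35, Slc25a47, Slc25a53 and Slc25a45 had overlapping groups and log2 fold changes of 0.08, 0.05, 0.02 and 0.01. On the TPM scale Slc25a45 was at -0.25, where all genes had a median of -0.29. Values of Slc25a35, Slc25a47 and Slc25a53 on that scale are not given, and their signs may not hold there. Slc25a35 shares 1151 exonic bases with Rangrf on the opposite strand. Slc25a43 (0.109 to 0.187 FPKM against 0.0834 and 0.108) and Slc25a48 (0.0263 to 0.0720 against 0.0405 and 0.0272) were under the minimum.

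Ratios between paralogs within a library do not depend on the scaling between libraries, and 7 pairs were compared. With 3 libraries against 2, the smallest p an exact 2-sided permutation test can give is 0.2, so no pair could pass 0.05. The ratio of Slc25a12 to Slc25a13 was 573, 548 and 557 in WT control TA and 360 and 325 in the libraries labelled skmNrip1-/-. Both were lower than every control, a 0.612-fold ratio (exact permutation p = 0.2, 0.35 after adjustment over the pairs), while Slc25a12 stayed the main form. Slc25a13 passed the minimum only through its level in the second group, so this ratio restates that difference, and with 0.1 FPKM added to both genes the difference of the log2 ratios was -0.58 instead of -0.71. The ratio of Slc25a4 to Slc25a5, 61.6 to 71.8 against 67.6 and 72.1, overlapped (difference of the log2 ratios 0.06, exact permutation p = 0.4, adjusted 0.467).

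Of the other pairs, Slc25a37 to Slc25a28 was 0.190 to 0.199 in WT control TA and 0.215 and 0.280 in the libraries labelled skmNrip1-/-, higher without overlap (1.27-fold). Slc25a33 to Slc25a36 was 1.45 to 2.28 against 1.29 and 1.23, lower without overlap (0.740-fold). Slc25a22 to Slc25a18 was 151 to 739 against 1281 and 878, also without overlap, but Slc25a18 is under the minimum. These 3 pairs had an exact permutation p of 0.2, or 0.35 after adjustment. Slc25a24 to Slc25a23 and Slc25a39 to Slc25a40 overlapped, with differences of the log2 ratios of 0.04 and 0.41 (exact permutation p = 0.8 and 0.4, adjusted 0.8 and 0.467).

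**Figure D4:**
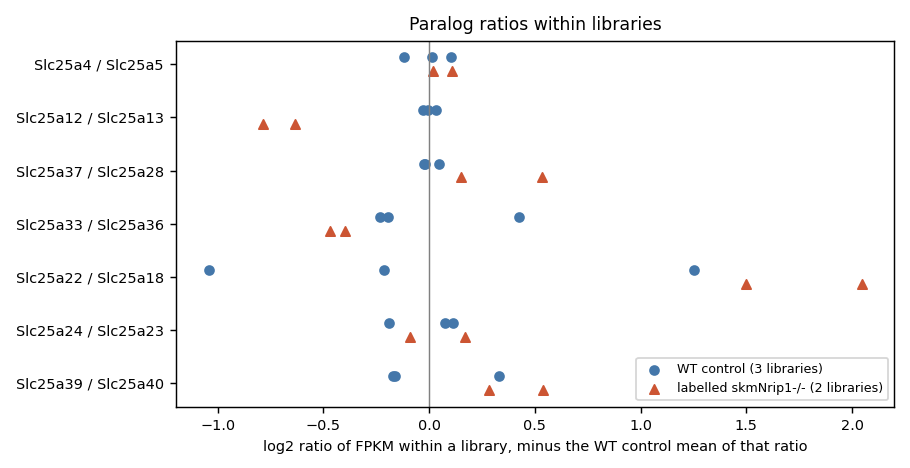
Log2 ratio of FPKM for 7 pairs of paralogs within each library, less the WT control mean of that ratio; circles are WT control and triangles are libraries labelled skmNrip1-/-. Slc25a12/Slc25a13 and Slc25a33/Slc25a36 lie below the controls, Slc25a37/Slc25a28 and Slc25a22/Slc25a18 above them, and the other 3 pairs overlap.

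Other mitochondrial transport proteins were read from the same fit, and none of them was called. Their values are given on the FPKM scale only, and on the TPM scale all genes had a median of -0.29. Of the related carrier-fold proteins outside the SLC25 names, 4 were in the table. The uncoupling protein Ucp3 had 41.9, 85.7 and 63.8 FPKM in WT control TA and 98.6 and 97.7 in the libraries labelled skmNrip1-/-, above every control, with a log2 fold change of 0.68 (SE 0.28, adjusted p = 0.406). Ucp2 had the lowest log2 fold change of the 4, at -0.29, and their median was 0.10. The proteins that deliver carriers from the cytosol and insert them into the inner membrane, 7 in all, had a median of 0.07. Of these, the import receptor Tomm70a was highest, with 9.81 to 12.2 FPKM against 13.2 and 13.8 (log2 fold change 0.30, adjusted p = 0.420), and Timm22, of the insertion complex, was lowest at -0.14, with overlapping groups.

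Of 21 other transporters of the mitochondrial membranes (pyruvate carriers, sideroflexins, VDACs, the calcium uniporter, ABC transporters), 20 were tested. Their median log2 fold change was 0.15, against 0.08 for the SLC25 carriers and -0.00 for all genes, and 15 were above 0, as were 49.9% of all genes. This list was not read on the TPM scale, where the SLC25 carriers had a median of -0.21 and all genes one of -0.29. At an unadjusted p of 0.05 or less, 3 were higher and none lower, against 6.57% and 5.33% of all genes. Abcb8, an ABC transporter of the inner membrane, had 15.99, 17.5 and 16.7 FPKM in WT control TA and 24.5 and 23.4 in the libraries labelled skmNrip1-/-, a log2 fold change of 0.52 (SE 0.10, adjusted p = 0.127). The calcium uniporter Mcu, with 13.0 to 13.8 FPKM against 16.6 and 16.2, had a log2 fold change of 0.30 (adjusted p = 0.319). Sfxn3, of the serine-transporting sideroflexins, was lowest at -0.31, with 4.43 to 5.95 FPKM against 3.89 and 4.16.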

How the data were processed

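RNA-seq of TA muscle was analysed from 3 WT control and 2 skmNrip1-/- libraries, grouped by their labels. The authors extracted total RNA, prepared libraries with the NEBNext Ultra kit, sequenced paired ends, and quantified reads with Salmon 1.10.2 on mm10 and tximport. The deposited FPKM were used; how FPKM were computed, the annotation release and the use of strand are not given in the sources used here. The authors also deposited log2 fold changes and adjusted p-values from DESeq2 1.44.0, which were not used. The number of fragments is unknown, so no counting interval is given. Nothing in the labels gives a batch, and a replicate number shared by both groups marks no shared mouse.

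Positions came from GENCODE M21, which held all 44 carrier IDs, and promoters from RefSeq. The comparison used limma 3.58.1 under R 4.3.3 (lmFit and trended eBayes, 2-sided) on log2(FPKM + 0.1), a scale that understates changes of low genes, with no covariates and Benjamini-Hochberg adjustment over 12148 genes. The limma step was also run on simulated data with planted changes. The outcome is not given here, and no result above rests on it. Paralog ratios were compared by exact permutation (scipy 1.17.1), and figures were drawn with matplotlib 3.10.9. The members and lists were chosen with earlier results of these data known. Named carriers are those at an unadjusted p of 0.05 or less, the most abundant and the extreme members of each substrate group, the carnitine, phosphate, metal and ADP/ATP carriers, the paralog pairs and those under the minimum; some genes that meet this rule enter the counts but are not reported here, and the other carriers were added after their values were seen. Of the related lists, the extreme and the lowest-p genes are named. The alternatives tried were other pseudocounts (1 and 0.01), another minimum (none, or 1), TPM, no trend, no fold threshold, a replicate block, and the omission of each library; scaling to the nuclear-encoded sum was added after the data were seen. Of the carriers, 12 share exonic bases with a gene on the opposite strand, and some of these overlaps are given beside the values.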

Additional observations from a re-analysis of the deposited data

How the results depend on the processing

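No carrier was called under 12 of 13 alternative settings of the fit or without the fold threshold; the exception, Slc25a20 without WT control replicate 2, was called higher. Leaving out each library gave 0 to 1 carriers called higher, 6 to 55 genes called higher and 3 to 16 lower, 2 to 9 carriers higher and 0 to 2 lower at an unadjusted p of 0.05 or less, and a carrier median of 0.0384 to 0.113. Without the trend, 22 genes were called higher and 3 lower. Rescaling to TPM gave 30 genes called higher and 63 lower, and a carrier median of -0.21 beside -0.29 for all genes. On the TPM scale, 2 carriers were higher and 8 lower at an unadjusted p of 0.05 or less, against 1.3% and 29.5% of all genes. That scale turned 9 named carriers below 0: Slc25a4 to -0.0802, Slc25a5 to -0.14, Slc25a11 to -0.0852, Slc25a12 to -0.0474, Slc25a14 to -0.0765, Slc25a33 to -0.27, Slc25a37 to -0.0945, Slc25a45 to -0.25 and Slc25a51 to -0.24. Other carriers at 0.02 to 0.23 in the main fit were not followed singly on that scale. They are Slc25a15, Slc25a16, Slc25a17, Slc25a26, Slc25a32, Slc25a35, Slc25a47 and Slc25a53. Their values are smaller than the shift of the median of all genes to -0.29, so their signs are not shown to hold there. Scaling to the nuclear-encoded sum, chosen after seeing the data, gave a carrier median of 0.15 beside 0.07 for all genes, and turned Slc25a24 to 0.0046 and Slc25a27 to 0.06. Leaving out libraries also turned the sign of Slc25a27 (-0.0434 to 0.0162), Slc25a33 (-0.0300 to 0.0786), Slc25a45 (-0.0897 to 0.125), Slc25a51 (-0.0524 to 0.116) and the log2 ratio of Slc25a24 to Slc25a23 (-0.0923 to 0.171), all close to 0. With the replicate number as a block, 18 genes were called higher and 4 lower. In that fit 5 carriers were higher and 0 lower at an unadjusted p of 0.05 or less, against 5.42% and 4.45% of all genes. The labels give no basis for a pairing by number, and the block leaves WT control replicate 3 without a partner. Deviations of same-numbered libraries from their group means correlated at 0.065 and 0.095. The deviations of the 2 libraries labelled skmNrip1-/- are exact opposites of each other, so these correlations cannot decide on a pairing. With 2 libraries in a group and an unknown number of fragments, small differences of low carriers were not detectable here. Larger differences were not called either in the main limma fit. Examples are Slc25a20 (ratio of the means 1.83, adjusted p = 0.0793) and Slc25a34 (ratio 1.94, adjusted p = 0.196). The cause of each shift was not tested.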
